A study of Caenorhabditis elegans with 12 samples.

Results

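The nhr genes of Caenorhabditis elegans were compared between animals given tetrathiomolybdate (TM) and animals given its vehicle. Members were all genes whose symbol is nhr followed by a number, except nhr-23, nhr-25, nhr-49, nhr-57, nhr-80 and nhr-85, which makes 235 of the 24238 genes in the table. The rule reads symbols and not values, apart from the minimum level used for testing, although it was written with earlier results of these data known. Whole animals of the wild-type strain N2 were used in both groups: 6 libraries came from animals given dimethyl sulphoxide (DMSO), the solvent control, and 6 from animals given TM for 4 days. TM binds copper and lowers the copper that cells can use. The labels name no mutant, transgene or RNAi, and the developmental stage, the TM dose and how many animals went into a library are unstated in the sources used here. Nothing in the labels says whether libraries with the same treatment came from separate cultures, so p-values reflect how far these libraries spread, and that spread may be partly technical. The RNA was poly(A)-selected, and each library holds between 61432401 and 67068328 read counts assigned to genes.

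Nuclear hormone receptors are transcription factors with a zinc-finger DNA-binding domain and a ligand-binding domain that can hold small lipophilic molecules such as steroids, fatty acids and bile acid-like compounds. Nematodes carry far more of them than insects or mammals do, and most nhr genes of C. elegans descend from duplicated copies of a gene related to HNF4, a regulator of fat and sugar metabolism in mammals. The few that have been studied act mainly in the intestine and epidermis, where they adjust fat storage, vitamin-dependent metabolism, detoxification and development, often together with the Mediator subunit MDT-15. Many nhr genes on chromosome V lie side by side in runs of related copies.

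Calls in TM were mostly rises among receptors of low level and mostly falls among receptors of high level, while close to as many tested members did not pass as did, and the rises depend on how the libraries are scaled. Of the 235 members, 134 had a mean of at least 1 FPKM (fragments per kilobase of gene, scaled to sequencing depth) over the 12 libraries and were tested; the other 101 lay below that level, 47 of them below 0.1 FPKM. In TM, 55 tested members were higher (41%) and 14 were lower (10.4%), at an adjusted p of 0.05 or less in edgeR's quasi-likelihood test, and 65 did not pass. Over all 11535 tested genes, 39.8% passed, 23.7% higher and 16% lower, so the share of members called higher was above the background and the share called lower was below it. The median log2 change was 0.35 over the tested members and -0.0091 over all tested genes. After quantile normalization of FPKM, which forces every library to one distribution of levels, the family turned around, with 12 members higher and 40 lower and a median of -0.11; the background was then 16.9% higher and 24.8% lower. The other settings kept the family's direction. Median-ratio scaling gave 54 members higher and 16 lower (background 23.2% and 19.4%), and total counts alone gave 62 and 11 (26.2% and 13%). DESeq2 gave 55 and 16 (24.1% and 20.8%). limma on log2(FPKM + 1) gave 61 and 11 (26.2% and 13.7%), and on log2(FPKM + 0.1) it gave 60 and 11 (26% and 13.7%).

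Changes of tested members ran from -0.63 to 1.77 on the log2 scale, 9 members rose by at least 1 and 0 fell by that much. The share of all tested genes past that size was not computed, so these counts describe the members without a background. The median change was 0.61 among the members that rose and -0.36 among those that fell. With the minimum set on the DMSO mean alone 6 members rose by at least 1, with limma on log2(FPKM + 1) 1 did, and after quantile normalization 0 did, with medians of 0.41 among those called higher and -0.40 among those called lower. All 6 TM values lay above all 6 DMSO values for 27 tested members, where 16.1% of all tested genes did so, and below them for 4 members, where 6.41% did so. The groups overlapped for the other 103 members.

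Level sorted the rises from the falls. Among the 30 tested members of 1 to 2 FPKM, 17 were higher (56.7%) and 0 lower, where all tested genes of that level were higher in 42.8% and lower in 2.93%. Of the 54 members of 2 to 5 FPKM, 28 were higher (51.9%) and 1 was lower, against 39.3% and 4.76% of all genes in that band. The 32 members of 5 to 10 FPKM divided into 8 higher (25%) and 5 lower (15.6%), against 34.2% and 10.2%. Among the 18 members of 10 FPKM or more, 2 were higher (11.1%) and 8 lower (44.4%), against 13% and 23.3%. The same order ran through the medians, which were 0.56, 0.41, 0.012 and -0.18 for members from the lowest band to the highest, and 0.44, 0.31, 0.12 and -0.10 for all tested genes. In the 2 upper bands the members' medians lay below those of all genes, and in the 2 lower bands above them. Tested members had a median level of 3.63 FPKM, against 16 FPKM for all tested genes, and the part of level in the family's counts was not tested. Quantile normalization turned the counts of the low bands around, with 7 higher and 15 lower among the 84 members of 1 to 5 FPKM, and 2 higher and 9 lower among the 18 members of 10 FPKM or more.

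**Figure D1:**
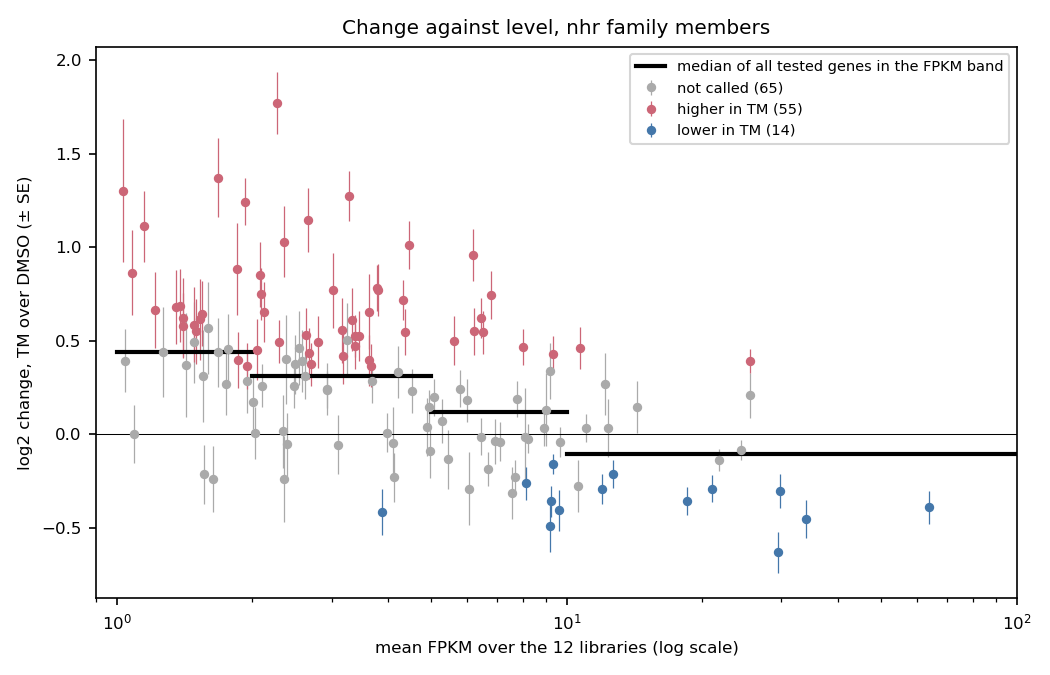
Each point is 1 of the 134 tested members, at its mean FPKM over the 12 libraries (log axis) and its log2 change in TM over DMSO with its standard error; black lines are the medians of all tested genes in 4 bands of level. Rises (55) lie mostly below 10 FPKM and falls (14) mostly near or above it, in a fit without quantile normalization, which turns the low-level rises around.

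More receptors reached 1 FPKM in TM, in the same proportion as genes of the whole table, and the family's summed level overlapped between the groups. Between 121 and 131 members had at least 1 FPKM in a DMSO library (126 ± 3.33, SD, n = 6), and between 128 and 145 in a TM library (139 ± 6.43, SD, n = 6). TM replicate 5 had the lowest TM count, 128, inside the DMSO range, and the other 5 TM libraries were all above it. Over all genes of the table, 10828 ± 132 (SD, n = 6) reached 1 FPKM in DMSO and 12037 ± 226 (SD, n = 6) in TM, a ratio of means of 1.11, and the ratio for the members was also 1.11. The summed FPKM of the 235 members was 776 to 905 in DMSO (840 ± 50, SD, n = 6) and 742 to 941 in TM (895 ± 76.1, SD, n = 6), and the groups overlapped. The sum was 54.6 FPKM higher in TM, and 85.2 FPKM higher without TM replicate 5. A few abundant receptors weigh on the sum, and without the 5 most abundant members the difference was 90.6 FPKM.

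**Figure D2:**
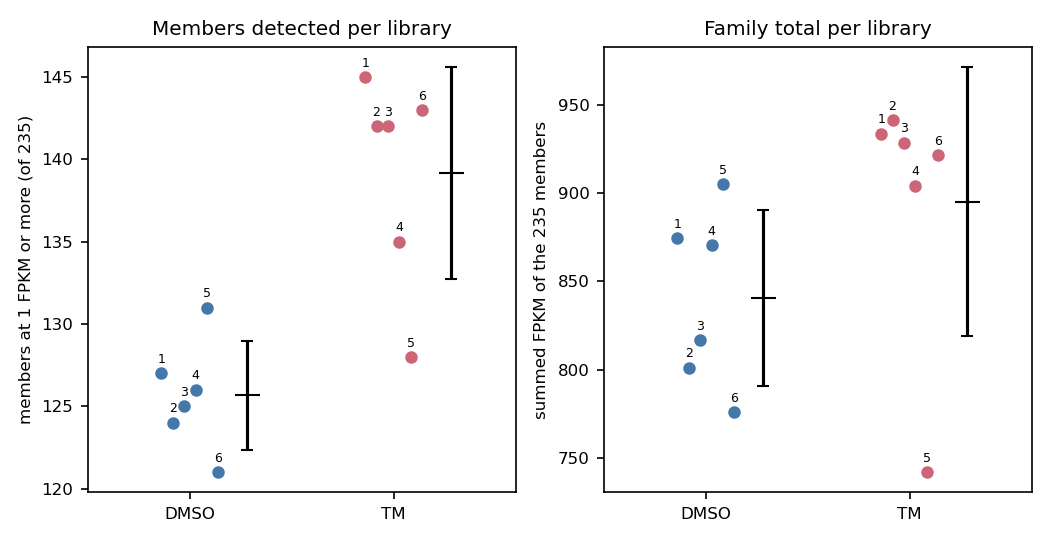
Left, the number of the 235 members with at least 1 FPKM in each library; right, their summed FPKM; points are libraries with their replicate numbers, and bars are group means with SD (n = 6), on axes that do not start at 0. Detected members rise from 121 to 131 in DMSO to 128 to 145 in TM, and the summed FPKM overlaps between groups, with TM replicate 5 lowest at 742.

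Libraries and tissues other than the receptors moved too. On the first principal component of all tested genes (73% of the variance) DMSO replicate 6 lay at -8.2, between the other DMSO libraries (-58.9 to -39.7) and TM (38.3 to 54.9), and on the second (10.2%) TM replicate 5 lay at -39.3 against 9.01 to 15.5 for the other TM libraries. DMSO replicates 6 and 2 also lay low on the second, at -28.9 and -19.3, against 1.56 to 9.43 for the other DMSO libraries. Without DMSO replicates 2 and 6 and TM replicate 5, 69 members were higher and 14 lower, against 30.5% and 24.6% of all genes. Without TM replicate 5 alone, 67 were higher and 14 lower, against 25.6% and 20.8%. Sperm markers summed to 19.8 to 95.2 FPKM in DMSO and 253 to 451 in TM, with 15 of 15 tested markers higher. Body wall muscle markers summed to 1681 to 2098 and 2522 to 3209 FPKM, with 11 of 12 higher. Epidermis and seam markers summed to 284 to 329 and 491 to 619 FPKM, with 8 of 13 higher and 2 lower. Neuron markers (401 to 469 and 418 to 507 FPKM, 7 of 14 higher and 1 lower) and intestine markers (2934 to 3604 and 3185 to 3913 FPKM, 5 of 13 higher and 1 lower) overlapped between the groups. Oocyte and germline markers summed to 9887 to 10891 and 8364 to 9895 FPKM, with 12 of 18 lower and 0 higher. These marker calls come from the fit of all 12 libraries, where 23.7% of all tested genes were higher and 16% lower. No marker was at 0 in all libraries. In RNA of whole animals, a change in the amount of a tissue and a change of transcript within its cells cannot be told apart, and the part of these tissue markers in the receptor changes was not tested.

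nhr-63, on chromosome V at 16002588-16004735 on the plus strand as the table gives it, rose most. Its DMSO libraries ran from 0.796 through a median of 0.967 to 1.38 FPKM and its TM libraries from 2.68 through 3.43 to 4.72 FPKM. Every TM library was above every DMSO library, and the mean went from 1.01 ± 0.210 to 3.53 ± 0.684 FPKM (SD, n = 6 each), a log2 change of 1.77 ± 0.166 (SE) with an adjusted p of 3.26e-06. These levels rest on 65 to 376 counts per library. Its neighbour nhr-50, in the same stretch of chromosome V, ran from 1.15 through 1.63 to 2.05 FPKM in DMSO and from 2.48 through 3.96 to 4.37 FPKM in TM, again with no overlap (log2 change 1.15 ± 0.171, adjusted p = 0.000117).

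nhr-58 and nhr-204, both near the left end of chromosome V, showed the same separation. For nhr-58 (532259-534070, plus strand) DMSO values of 0.606, 0.936 and 1.23 FPKM (lowest, median and highest) stood against 1.84, 2.27 and 3.27 FPKM in TM, a log2 change of 1.37 ± 0.212 with an adjusted p of 0.00016. For nhr-204 (254838-258830, minus strand) DMSO values of 1.01, 1.09 and 1.27 FPKM stood against 2.13, 2.83 and 3.15 FPKM in TM, a log2 change of 1.24 ± 0.126 with an adjusted p of 5.49e-06. In both genes the lowest TM library lay above the highest DMSO library. nhr-58 met the minimum of 1 FPKM only through its TM values, so its call is given as a description.

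nhr-53 (V, 15700606-15702363, minus strand) was the one tested member of a run of 7 neighbouring nhr genes. It went from 1.66, 1.86 and 2.18 FPKM in DMSO to 3.48, 4.71 and 5.77 FPKM in TM (lowest, median and highest), a log2 change of 1.28 ± 0.134 with an adjusted p of 7.09e-06. nhr-5, on chromosome IV at 15400277-15407416 on the plus strand, went from 2.52, 2.86 and 3.45 FPKM to 4.47, 6.27 and 7.28 FPKM, a log2 change of 1.01 ± 0.128 with an adjusted p of 3.03e-05. nhr-156 (V, 3906106-3908452, plus strand), the most abundant of the 12 largest rises, went from 3.21, 4.17 and 5.00 FPKM to 5.99, 8.77 and 10.3 FPKM (a log2 change of 0.96 ± 0.139, adjusted p = 9.29e-05). The groups did not overlap in any of these 3 genes. nhr-152 (0.740 FPKM at the DMSO median and 1.62 FPKM at the TM median, log2 change 1.11) and nhr-170 (1.47 and 3.35 FPKM, log2 change 1.03) rose likewise without overlap.

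Other rises were less cleanly separated. nhr-195 (V, 8970693-8972371, minus strand) went from 0.196, 0.535 and 0.999 FPKM to 0.445, 1.56 and 2.14 FPKM, and its lowest TM library lay within the DMSO range (log2 change 1.30 ± 0.382, adjusted p = 0.0147). nhr-44 (1.28 ± 0.447 to 2.41 ± 0.715 FPKM, SD, n = 6) and nhr-213 (0.756 ± 0.231 to 1.41 ± 0.379 FPKM, SD, n = 6) also rose with overlapping groups. None of the 12 largest rises lost its call when any 1 library was left out, in fits that kept the minimum set over all 12 libraries. nhr-195, nhr-213, nhr-58 and nhr-152 had DMSO means below 1 FPKM and met that minimum only through their TM values. Their calls are therefore given as a description. After quantile normalization the calls of nhr-195, nhr-152, nhr-170, nhr-44 and nhr-213 were lost.

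The falls came from receptors of higher level. nhr-17 (X, 12663837-12667854, minus strand) fell most: DMSO libraries ran from 29.7 through 35.1 to 42.4 FPKM and TM libraries from 16.7 through 23.4 to 28.9 FPKM. Every TM library was below every DMSO library, and the log2 change was -0.63 ± 0.112 with an adjusted p of 0.000475. A non-coding RNA gene on the same strand, C02B4.8, overlaps nhr-17 by 100 bases and was also lower in TM (5.06 ± 1.71 to 0.719 ± 0.539 FPKM, SD, n = 6), and how reads in the shared stretch were counted is not given in the sources used here.

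nhr-114 was the most abundant member in both groups, and its receptor is known for adjusting the methionine and S-adenosylmethionine cycle of the intestine and germline when vitamin B12 is scarce. It lies on chromosome V at 4187202-4190008 on the plus strand. DMSO libraries ran from 63.9 through 71.7 to 78.8 FPKM and TM libraries from 48.9 through 55.4 to 68.9 FPKM. It fell by 0.39 ± 0.0879 on the log2 scale (adjusted p = 0.00287), and TM replicate 2, at 68.9 FPKM, was the one TM library inside the DMSO range. The whole gene overlaps Y45G5AM.9 on the other strand (59.6 ± 4.52 to 55.5 ± 4.21 FPKM, SD, n = 6, adjusted p = 0.21). The library kit marks strand, but whether counting used it is not given in the sources used here.

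nhr-86, an HNF4-like receptor of the intestine that senses a bacterial phenazine and switches on immune genes, lies on chromosome V at 2061106-2066850 on the minus strand. It went from 34.5, 39.2 and 43.2 FPKM in DMSO to 25.1, 27.4 and 35.6 FPKM in TM (lowest, median and highest), a log2 change of -0.45 ± 0.102 with an adjusted p of 0.00276. TM replicate 5 was its highest TM library and the one that reached into the DMSO range. nhr-66 and nhr-13, known partners of NHR-49 in lipid metabolism, fell too. nhr-66 (IV, 8226331-8236602, minus strand) went from 28.2, 33.2 and 34.6 FPKM to 18.2, 28.6 and 29.3 FPKM (a log2 change of -0.30 ± 0.0915, adjusted p = 0.0171), and its call was lost when libraries were scaled by total counts alone and with limma at either pseudocount. nhr-13 (V, 2192485-2196827, plus strand) went from 12.1, 13.3 and 13.7 FPKM to 10.2, 11 and 11.6 FPKM with no overlap (log2 change -0.29 ± 0.079, adjusted p = 0.00918).

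nhr-2, which is known to act in the embryo, went from 8.70, 10.7 and 12.5 FPKM in DMSO to 5.61, 8.64 and 9.55 FPKM in TM, a log2 change of -0.41 ± 0.111 with an adjusted p of 0.00997. nhr-71 (21, 23.4 and 24 to 18, 19.1 and 20.2 FPKM) fell without overlap, by 0.29 ± 0.0707 on the log2 scale (adjusted p = 0.00495). nhr-4 also fell without overlap, from 10.2 ± 0.726 to 8.16 ± 0.993 FPKM (SD, n = 6; log2 change -0.36), and nhr-20 fell with overlap, from 20.5 ± 1.79 to 16.4 ± 1.95 FPKM (a log2 change of -0.36). The groups of nhr-22 (log2 change -0.49, adjusted p = 0.0128) and nhr-78 (log2 change -0.42, adjusted p = 0.0148) overlapped, and without DMSO replicates 2 and 6 and TM replicate 5 the adjusted p of nhr-78 was 0.124. nhr-256 (8.77 ± 0.709 to 7.45 ± 0.65 FPKM, SD, n = 6, log2 change -0.26, adjusted p = 0.0284) rested on most libraries: its call was lost without DMSO replicate 1, 3, 5 or 6 or without TM replicate 1, 3, 4 or 6, with adjusted p up to 0.0635. The remaining falls were nhr-138 (log2 change -0.21, adjusted p = 0.0347) and nhr-48.

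**Figure D3:**
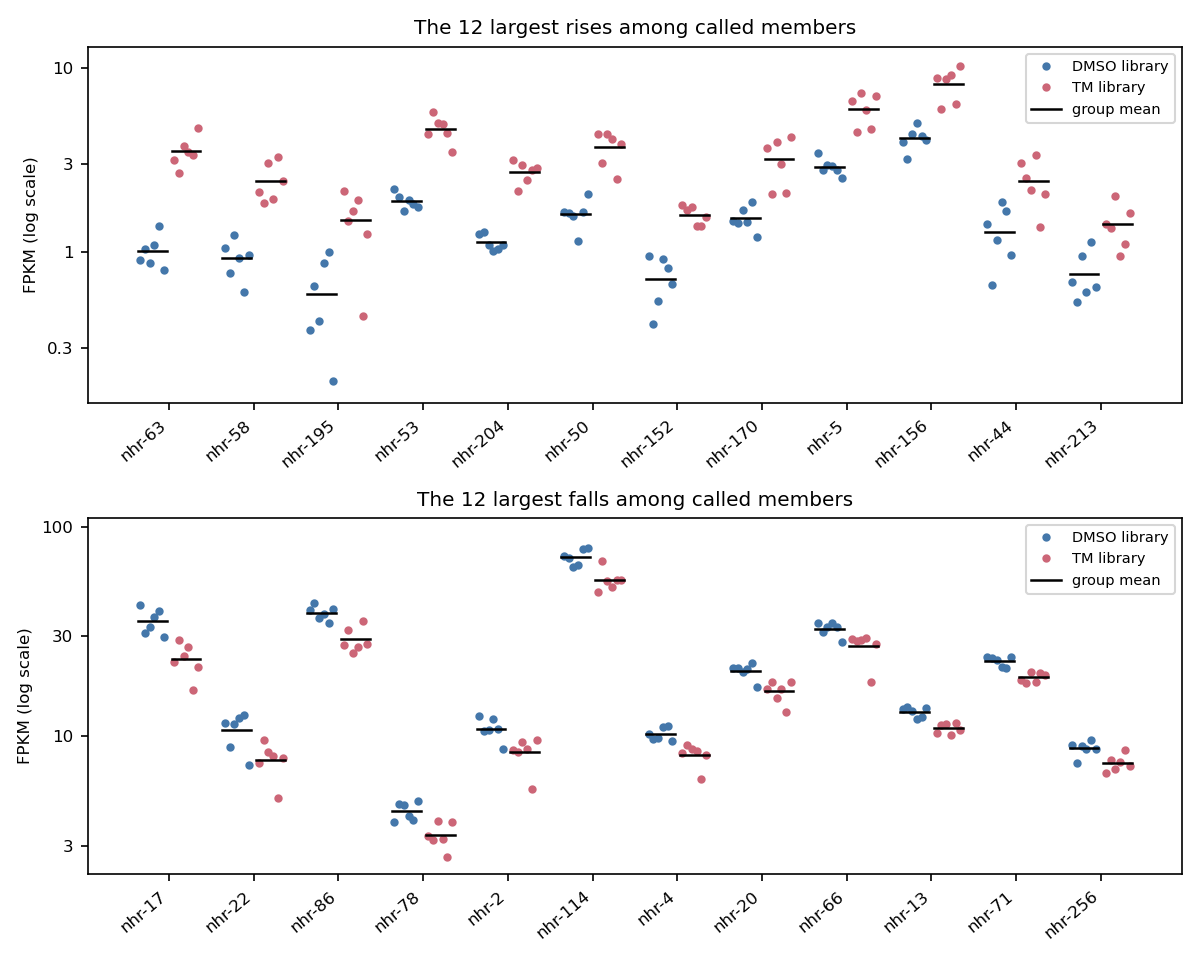
FPKM (log axis) of the 12 members with the largest rise (top) and the 12 with the largest fall (bottom) among those called, each point 1 library and each line a group mean (n = 6). The rises reach at most 10.3 FPKM and the falls reach up to 78.8 FPKM for nhr-114. Among the rises TM and DMSO points overlap for nhr-195, nhr-44 and nhr-213 and are apart for the others. Among the falls they are apart for nhr-17, nhr-4, nhr-13 and nhr-71.

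Abundant receptors did not all fall. nhr-97 was one of the 2 members of 10 FPKM or more that rose, from 20.3, 22 and 23.3 FPKM in DMSO to 23.6, 29.8 and 32.1 FPKM in TM, with no overlap (log2 change 0.39 ± 0.0639, adjusted p = 0.000244). The other was nhr-69, described with the receptors of known role. nhr-274 (24.8 ± 1.02 and 23.9 ± 1.70 FPKM, SD, n = 6, adjusted p = 0.224) and nhr-46 (22.6 ± 1.40 and 21 ± 1.27 FPKM, adjusted p = 0.0818) did not pass the test. For nhr-46 the median-ratio scaling, DESeq2 and both looser filters on low levels did give a call, with log2 changes of -0.18 to -0.16.

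Receptors with an orthologue in other animals were read from a list of 7, of which 5 were tested. Of these, 3 rose, 1 fell and 1 did not pass, where 23.7% of all tested genes were higher and 16% lower. nhr-67, the tailless orthologue, was below the minimum level, and nhr-111 was not analysed here. nhr-41, the orthologue of the mammalian TR2 and TR4 receptors, rose from 1.53 ± 0.169 to 2.64 ± 0.538 FPKM (SD, n = 6) with no overlap, a log2 change of 0.75 ± 0.136 with an adjusted p of 0.000582. nhr-91, the orthologue of the germ cell nuclear factor, rose from 1.11 ± 0.117 to 1.70 ± 0.458 FPKM (a log2 change of 0.58 ± 0.174, adjusted p = 0.0164). nhr-6, the NR4A orthologue needed to form the spermatheca, rose from 1.71 ± 0.389 to 2.39 ± 0.457 FPKM (a log2 change of 0.45 ± 0.162, adjusted p = 0.0382), and its call was lost without DMSO replicate 2, 3 or 4 or TM replicate 3 or 6. nhr-48, a relative of the steroid receptor DAF-12, fell from 9.74 ± 0.274 to 8.92 ± 0.390 FPKM (a log2 change of -0.16 ± 0.0543, adjusted p = 0.0332), and its call was lost without DMSO replicate 2, 3 or 6 or TM replicate 1, 2 or 6. That call was also lost with total counts alone, with the minimum on the DMSO mean, and with limma at either pseudocount. It was lost too without DMSO replicates 2 and 6 and TM replicate 5 together. After quantile normalization the log2 changes of nhr-6 and nhr-91 were -0.087 and -0.064, and the call of nhr-41 was lost.

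nhr-8, another relative of daf-12 that acts in drug resistance and cholesterol balance, was decided by 1 library. Its DMSO values of 8.25, 11.8 and 12.7 FPKM and TM values of 6.73, 14.5 and 16.2 FPKM gave a log2 change of 0.27 ± 0.166 that did not pass (adjusted p = 0.209). TM replicate 5 held the 6.73 FPKM and the other TM libraries 13.7 to 16.2 FPKM, above every DMSO library. Without TM replicate 5 the change was 0.40 ± 0.0957 with an adjusted p of 0.00332. nhr-8 overlaps F33D4.6 on the other strand by 47 bases, a gene that was higher in TM (0.805 to 5.88 FPKM, log2 change 2.81).

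The 10 tested receptors known from fat, propionate, methionine or iron metabolism went both ways, with 3 higher, 3 lower and 4 not passing, and a median log2 change of 0.081; over all tested genes 23.7% were higher and 16% lower. nhr-14, an HNF4-like receptor that represses the metal importer gene smf-3 and thereby limits iron uptake, rose most among them. It lies on chromosome X at 8473722-8476178 on the minus strand, and went from 4.35, 5.03 and 5.72 FPKM in DMSO to 5.92, 7.86 and 9.37 FPKM in TM. All TM libraries were above all DMSO libraries, and the log2 change was 0.62 ± 0.106 with an adjusted p of 0.000352. nhr-69, which adjusts insulin secretion, rose from 8.90 ± 1.52 to 12.5 ± 1.74 FPKM (SD, n = 6, log2 change 0.46 ± 0.11, adjusted p = 0.00422), and nhr-64, which acts in fat storage, from 7.83 ± 0.951 to 10.8 ± 1.29 FPKM (a log2 change of 0.43 ± 0.0955, adjusted p = 0.00257). The call of nhr-64 was lost after quantile normalization. The 3 that fell were nhr-114, nhr-66 and nhr-13.

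nhr-68 and nhr-10, which together switch on the propionate shunt when vitamin B12 is short, did not pass the test. nhr-68 (V, 11573440-11575709, plus strand) ran from 18.9, 22.8 and 29.3 FPKM in DMSO to 17.4, 29.2 and 30.8 FPKM in TM (a log2 change of 0.21 ± 0.12, adjusted p = 0.183). TM replicate 5 held the 17.4 FPKM and the other TM libraries 28.2 to 30.8 FPKM, and without it the change was 0.30 ± 0.081 with an adjusted p of 0.00716. nhr-10 went from 13.4 ± 2.57 to 15.2 ± 3.02 FPKM (adjusted p = 0.412). nhr-62, which acts in the response to dietary restriction (2.30 ± 0.334 and 2.37 ± 0.732 FPKM, adjusted p = 0.957), and nhr-76, which acts in fat loss driven by serotonin (6.4 ± 0.56 and 6.48 ± 0.437 FPKM, adjusted p = 0.939), had means that differed by less than their spread.

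Of the 4 receptors known from detoxification, mitochondrial surveillance or pathogen sensing, nhr-176 rose, nhr-86 fell, and nhr-8 and nhr-45 did not pass. Over all tested genes 23.7% were higher and 16% lower. nhr-176, which drives the cytochrome P450 gene cyp-35D1 after exposure to thiabendazole, went from 2.69 ± 0.587 to 3.66 ± 0.607 FPKM (SD, n = 6, log2 change 0.42 ± 0.147, adjusted p = 0.0363). That call was lost without DMSO replicate 1, 2, 3, 5 or 6 or TM replicate 2, 3, 4 or 6, and after quantile normalization the change was -0.046. nhr-45, which acts in the response to mitochondrial damage, was at 5.10 ± 0.45 and 5.48 ± 1.04 FPKM (adjusted p = 0.641). Of the 6 receptors known from development, 4 were tested, with nhr-6 higher and nhr-2 lower, beside the same 23.7% and 16% of all tested genes. nhr-31, which acts in growth of the excretory cell, was at 8.28 ± 1.12 and 6.81 ± 1.61 FPKM (a log2 change of -0.31 ± 0.14, adjusted p = 0.0902) and passed without TM replicate 2 (adjusted p = 0.0349). nhr-40, which acts in muscle and embryonic development, was at 8.50 ± 2.11 and 9.49 ± 2.60 FPKM (adjusted p = 0.615). nhr-67 (0.65 ± 0.0828 and 0.668 ± 0.223 FPKM) and nhr-60, which acts in seam cells (0.61 ± 0.295 and 0.506 ± 0.0746 FPKM), were below the minimum level and not tested.

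**Figure D4:**
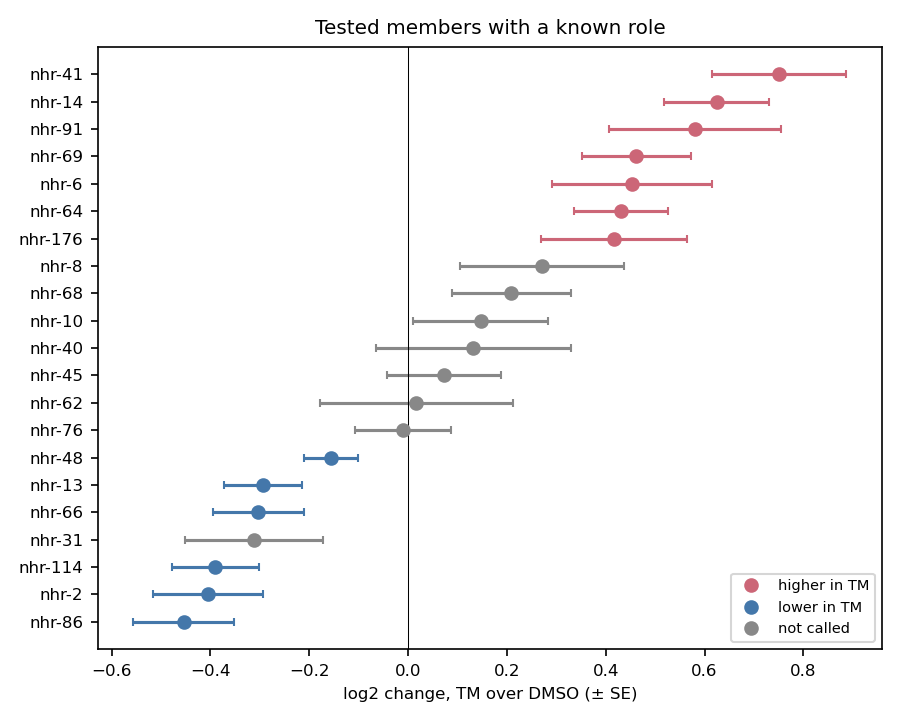
Log2 change in TM over DMSO with its standard error for the 21 tested members with a known role, ordered by size. nhr-41 (0.75), nhr-14 (0.62) and nhr-91 (0.58) stand at the top and nhr-86 (-0.45), nhr-2 (-0.41) and nhr-114 (-0.39) at the bottom; after quantile normalization nhr-91, nhr-6 and nhr-176 lie just below 0.

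Position on the genome was a property that the symbols did not use. Chromosome V holds 149 of the 235 members and 80 of the 134 tested, of which 38 were higher and 4 lower, with a median log2 change of 0.41. All 2089 tested genes of chromosome V were higher in 29.1% and lower in 14.1%, with a median of 0.077. The 54 tested members on other chromosomes had 17 higher and 10 lower and a median of 0.17, where 23.7% of all tested genes were higher and 16% lower. Chromosome IV held 23 tested members (5 higher, 4 lower, median 0.26), beside 24.5% higher and 16% lower among all its tested genes. Chromosome X held 15 (5 higher, 3 lower, median 0.13), beside 28% and 14.5%. Chromosome I held 5 (3 higher, 1 lower, median 0.43), beside 20.8% and 17.3%. Chromosome II held 7 (3 higher, 1 lower, median 0.33), beside 22.1% and 18.3%. Chromosome III held 4 (1 higher, 1 lower, median 0.045), beside 18.4% and 15.8%. The median of chromosome I lay slightly above that of chromosome V. This was a description, and no difference between chromosomes was tested.

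Neighbouring copies were gathered into runs of at least 4 nhr genes with gaps of at most 10 kb. The 12 runs held 82 members, 46 of them tested, and 22 of those were higher in TM (47.8%) and 0 lower, with a median log2 change of 0.47; over all tested genes 23.7% were higher and 16% lower, and over genes of 2 to 5 FPKM 39.3% and 4.76%. Outside the runs, 88 members were tested, with 33 higher, 14 lower and a median of 0.18. The tested members in runs were also of lower level, with a median of 2.60 FPKM against 5.01 FPKM outside. Close copies can share reads, and how reads that match several genes were counted is not given in the sources used here, so the split between neighbours in a run is uncertain.

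The longest run, 45.8 kb on chromosome V at 451451-497297, held 12 members. Of its 11 tested members 10 rose, beside 23.7% of all tested genes and 39.3% of those of 2 to 5 FPKM, and all 11 changes were positive, with a median of 0.61. With any 1 library left out 7 to 9 of the 11 were called and all 11 stayed positive, and with the replicate number as a block 7 were called. The 10 rises were of 0.37 to 0.85. nhr-99 rose most, from 1.46 ± 0.345 to 2.70 ± 0.492 FPKM (SD, n = 6, log2 change 0.85 ± 0.172, adjusted p = 0.00131). nhr-131 at the right end rose from 3.22 ± 0.388 to 5.43 ± 0.357 FPKM (a log2 change of 0.72 ± 0.108, adjusted p = 0.000121), and with nhr-212 (2.79 to 4.13 FPKM) it was one of the 2 whose groups did not overlap. Next in size were nhr-203 (2.21 to 3.85 FPKM, log2 change 0.77), nhr-55 (2.79 to 4.49 FPKM, 0.66), nhr-98 (1.09 to 1.72 FPKM, 0.62) and nhr-202 (2.59 to 4.07 FPKM, 0.61). nhr-201 (1.17 to 1.79 FPKM, 0.59), nhr-211 (1.59 to 2.14 FPKM, 0.40) and nhr-106 (2.33 to 3.08 FPKM, 0.37) rose less. nhr-130, the most abundant of the run, did not pass (5.55 ± 0.833 and 6.43 ± 0.493 FPKM, log2 change 0.18 ± 0.115, adjusted p = 0.224), and nhr-123, with a mean of 0.740 FPKM, was not tested. After quantile normalization 1 of the 11 was called higher, and 6 changes were positive and 5 negative.

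**Figure D5:**
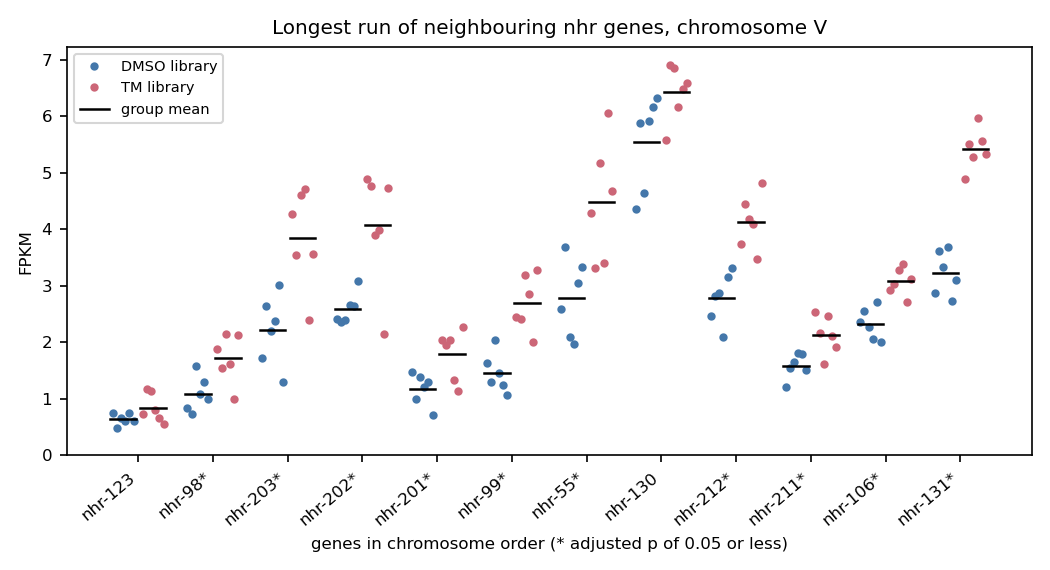
FPKM of the 12 members of the longest run of neighbouring nhr genes on chromosome V, in chromosome order; points are libraries, lines are group means (n = 6), and stars mark the 10 members called higher in TM. The means of all 12 lie higher in TM, by a small step for nhr-130 and nhr-123, in FPKM that were not quantile-normalized.

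A short run on chromosome V at 8961878-8974939 held larger changes: of its 3 tested members nhr-195 and nhr-44 rose (log2 changes of 1.30 and 0.88, as given above), and nhr-143 did not pass (2.12 and 2.97 FPKM, log2 change 0.46, adjusted p = 0.0791). Several runs were nearly silent. A run of 7 members on chromosome V at 3844429-3886204 had none above the minimum level, with means of 0.00749 to 0.452 FPKM. None of the 4 members at V 7340403-7349641, and none of the 4 at X 12695589-12808318, was tested. In the run of 7 at V 15674007-15702363 nhr-53 alone was tested. In a run at V 2210510-2235180, all 9 tested members had positive changes and 2 rose, and in its neighbour at V 2257420-2296977 all 6 were positive and 2 rose. Over all tested genes 23.7% were called higher, and over those of 2 to 5 FPKM 39.3% were, so the calls in these 2 runs were not above that level's share.

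The minimum of 1 FPKM was met narrowly by nhr-195 (1.03 FPKM), nhr-59 (1.04 FPKM) and nhr-213 (1.08 FPKM), and missed narrowly by nhr-129 (0.991 FPKM), nhr-209 (0.984 FPKM) and nhr-36 (0.981 FPKM). nhr-59 did not pass the test (0.884 to 1.2 FPKM, log2 change 0.39, adjusted p = 0.0795), though it did without DMSO replicate 2 (adjusted p = 0.0287). A mean over both groups lets a gene enter because it is high in one of them: 6 tested members had a DMSO mean below 1 FPKM and 5 of those were called higher, and 0 tested members had a TM mean below it. Among members with a DMSO mean of at least 1 FPKM, 50 were higher and 14 lower, a count for which no share of all genes was computed. In a fit with the minimum set on the DMSO mean alone, 55 of 130 members were higher (42.3%) and 11 lower (8.46%). All 10844 genes of that fit were higher in 20.9% and lower in 13.5%.

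Most receptors below 1 FPKM showed no call. With a minimum of 0.1 FPKM, 54 further members were tested, of which 8 were higher, 1 was lower and 45 did not pass. All 188 members at that minimum were higher in 30.9% and lower in 9.57%, against 22% and 14.6% of all 16617 genes. No share was computed for all genes of 0.1 to 1 FPKM alone, so the 54 have no background of their own level. The minimum applies to the mean over both groups, so nhr-113, nhr-73 and nhr-245, with DMSO means below 0.1 FPKM, were tested only through their TM values, and their calls are given as a description. nhr-113 had 0 to 8 counts in each DMSO library, 0 in 4 of them, and 35 to 63 counts in each TM library (0.0301 ± 0.0468 to 0.648 ± 0.156 FPKM, SD, n = 6, log2 change 4.28 ± 0.78, adjusted p = 0.000636). nhr-73 had 0 to 14 counts in DMSO and 23 to 45 in TM (log2 change 2.78, adjusted p = 0.00792). nhr-208 (0.255 to 0.899 FPKM, log2 change 1.70), nhr-206 (0.447 to 1.05 FPKM, 1.16) and nhr-245 (0.0514 to 0.253 FPKM, 2.15) were also called higher, as were nhr-116, nhr-179 and nhr-209. nhr-269 went the other way, from 28 to 50 counts in DMSO to 0 to 11 in TM (0.519 ± 0.112 to 0.0769 ± 0.0625 FPKM, log2 change -2.72 ± 0.66, adjusted p = 0.00488). These low members were named after their values were seen, and fitted changes at so few counts depend on the prior count.

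Around the family, receptors of other names did not share a direction. Of 6, 3 were tested, with 1 higher, 1 lower and 1 not passing. Over all tested genes 23.7% were higher and 16% lower, and counts this small cannot be set apart from those shares. daf-12, the steroid receptor of dauer entry, rose from 2.81 ± 0.302 to 3.66 ± 0.513 FPKM (a log2 change of 0.35 ± 0.106, adjusted p = 0.017), though with -0.10 after quantile normalization. sex-1, which counts X chromosomes in the embryo, fell from 19.6 ± 1.58 to 15.3 ± 1.69 FPKM (a log2 change of -0.39 ± 0.0752, adjusted p = 0.000953), and hizr-1, the zinc-sensing receptor, was at 1.19 and 1.27 FPKM (adjusted p = 0.791). Among the 6 nhr genes outside the members, 5 were tested and nhr-57, a target of the hypoxia factor HIF-1, rose (7.02 ± 0.869 to 10.6 ± 1.73 FPKM, log2 change 0.56 ± 0.116, adjusted p = 0.00163). nhr-49, the fat regulator that pairs with nhr-66 and nhr-13, did not pass (64.9 ± 4.75 and 63.7 ± 4.92 FPKM, adjusted p = 0.436).

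Coregulators, read from a list of 4, had 0 called in either direction, where 23.7% of all tested genes were higher and 16% lower. Among them mdt-15 was at 36.5 ± 2.2 and 36.2 ± 1.96 FPKM (SD, n = 6, adjusted p = 0.52). Without DMSO replicates 2 and 6 and TM replicate 5, gei-8 (log2 change -0.21, adjusted p = 0.00482) and cbp-1 (log2 change -0.12, adjusted p = 0.0321) were called lower, and after quantile normalization gei-8 and din-1 were. Of 5 genes that make dafachronic acid, the DAF-12 ligand, 2 were tested, and emb-8, the cytochrome P450 reductase, rose from 113 ± 4.65 to 132 ± 9.65 FPKM (a log2 change of 0.19 ± 0.0522, adjusted p = 0.00958). daf-36, the enzyme that opens the pathway, did not pass (log2 change -0.29, adjusted p = 0.102).

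Known targets of single receptors were counted next to the receptors, where 23.7% of all tested genes were higher and 16% lower. Of the 5 propionate shunt genes run by NHR-10 and NHR-68, 3 rose and 2 did not pass. ech-6 rose from 580 ± 50.3 to 750 ± 64 FPKM (SD, n = 6, log2 change 0.34, adjusted p = 0.00683). The other 2 rises were small (hphd-1, 0.23 with adjusted p = 0.0317, and hach-1, 0.22 with adjusted p = 0.0366) and were lost without some single libraries, in 6 and 7 of the 12 omissions. Of 9 genes of the methionine cycle linked to NHR-114, 3 rose, 1 fell and 5 did not pass; one of the rises, that of metr-1, the methionine synthase (log2 change 0.21, adjusted p = 0.0362), was lost in 9 of the 12 omissions of a library and with DESeq2 and median-ratio scaling. sams-5, which makes S-adenosylmethionine, rose from 1.77 ± 0.339 to 8.42 ± 1.02 FPKM (a log2 change of 2.21 ± 0.147, adjusted p = 5.89e-07), while sams-1, the abundant enzyme of the same step, fell from 69.4 ± 5.56 to 54.8 ± 8.23 FPKM (a log2 change of -0.37, adjusted p = 0.00944), a call lost without DMSO replicates 2 and 6 and TM replicate 5. sams genes are close copies, so reads may be split between them.

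Of 18 vacuolar ATPase subunit genes, targets of NHR-31, 2 rose (vha-5, 13.6 ± 1.83 to 18.8 ± 2.46 FPKM, log2 change 0.44 ± 0.0902, adjusted p = 0.00141, and vha-3, log2 change 0.21, adjusted p = 0.0448) and 16 did not pass. The call of vha-3 was lost in 7 of the 12 omissions of a library and with median-ratio scaling. The median of the 18 was -0.012. Of 7 tested cytochrome P450 and immune genes linked to NHR-8, NHR-176 or NHR-86, 2 rose, 1 fell and 4 did not pass. cyp-35A3, a detoxification enzyme, rose from 3.10 ± 0.763 to 8.20 ± 1.39 FPKM (a log2 change of 1.38 ± 0.152, adjusted p = 1.09e-05), and cyp-35A2 from 26.7 ± 2.96 to 39.1 ± 8.37 FPKM (a log2 change of 0.52, adjusted p = 0.00393). irg-6, an immune gene, fell from 9.94 ± 2 to 4.06 ± 1.43 FPKM (a log2 change of -1.32 ± 0.212, adjusted p = 0.000225). The other immune genes of the list, irg-4 (log2 change 0.16, adjusted p = 0.289) and irg-5 (-0.23, adjusted p = 0.191), did not pass. cyp-35D1, the target of NHR-176, was below the minimum level and not tested (0.542 ± 0.145 and 0.699 ± 0.174 FPKM).

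TM replicate 5 stood low for the receptors. It had the lowest value of the 6 TM libraries for 78 of the 134 tested members and the highest for 13, and for 13 of the 18 members of 10 FPKM or more it was the lowest. Gene length moved with this: over all tested genes the median log2 difference between TM replicate 5 and the mean of the other TM libraries was 0.17 for genes with under 1 kb of exons, -0.11 for 1 to 2 kb, -0.32 for 2 to 3 kb and -0.41 from 3 kb up. Among the members, whose median exon length was 1466 bases, it was -0.26, -0.27 and -0.23 in the last 3 classes, and 0 members lay in the first. DMSO replicate 6 showed a smaller trend of the same kind against the other DMSO libraries, with 0.14, 0.00071, -0.13 and -0.21 over all tested genes in the 4 classes. The part of length in the values of these libraries was not tested.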

How the data were processed

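Messenger RNA of whole N2 animals was sequenced in 6 DMSO and 6 TM libraries. The authors deposited 1 table with raw read counts and FPKM values per gene and library, per the file headers. Per the submitters' processing notes, cutadapt 1.9, FastQC, HISAT2 2.2.1 and StringTie were used; no source used here names the counting tool, its strand setting or the genome build. Positions are as the deposited table gives them; the starts of 224 members and the ends of 220 equal those in WBcel235. The members and gene lists were chosen with earlier results of these data known.

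Genes whose mean reached 1 FPKM (11535) had their counts fitted with edgeR 4.0.16 (TMM scaling, robust quasi-likelihood test, R 4.3.3), with Benjamini-Hochberg adjustment over all tested genes and a threshold of 0.05. FPKM values are given as levels, as mean ± SD over libraries; log2 changes carry the standard error of the fit. Tested on simulated counts for this comparison over 11535 genes with 50 genes changed at each size, the fit recovered 10% of 1.25-fold, 58% of 1.5-fold, 90% of 2-fold and 100% of 4-fold changes, so small changes can be missed. Far fewer genes changed in the simulation than were called in the data (39.8%). Its adjusted p threshold was therefore stricter, and these shares do not carry over directly to the data. Named were the 12 largest rises and 12 largest falls among called members, the 10 most abundant members, the tested members of 4 lists of known roles, the 3 members on either side of the minimum, and up to 3 genes of smallest p in each other list. Alternatives were 2 other scalings, 3 other filters on low levels, DESeq2 1.42.0, limma 3.58.1 on log2(FPKM + 1), on log2(FPKM + 0.1) and after quantile normalization, a replicate block, and libraries left out. Level bands, runs, chromosomes and exon lengths were chosen for description after values were seen. Receptor proteins and promoters were not analysed here, nor were 42 nhr symbols of WBcel235 without an entry in the table.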

Additional observations from a re-analysis of the deposited data

Results flagged for a closer look

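Of the 98 sets of 6 libraries checked, 11 held a library whose gap to its nearest neighbour was a larger share of the group's whole range than Dixon's critical value for 6 values, where chance gives about 1 in 20. In 8 of them the library was TM replicate 5, the lowest each time. It stood at 5.61 FPKM for nhr-2 (other TM libraries 8.38 to 9.55), at 6.23 FPKM for nhr-4 (8.17 to 9.07), and at 18.2 FPKM for nhr-66 (27.7 to 29.3). It stood at 17.4 FPKM for nhr-68 (28.2 to 30.8), at 20.7 FPKM for nhr-274 (23.8 to 25.5), at 6.73 FPKM for nhr-8 (13.7 to 16.2) and at 4.42 FPKM for nhr-40 (9.20 to 11.4). The summed FPKM of the members in TM replicate 5 was 742, against 904 to 941 in the other TM libraries. In nhr-114 it was TM replicate 2 that stood high, at 68.9 FPKM against 48.9 to 55.5. nhr-176 was at 3.84 FPKM in DMSO replicate 4, against 2.17 to 2.62 in the other DMSO libraries. nhr-129, just below the minimum level, was at 1.49 FPKM in TM replicate 1, against 0.856 to 0.916.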

How the results depend on the processing

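Under 12 libraries left out in turn, members called higher numbered 48 to 67 and lower 12 to 14, the median log2 change of members ran from 0.32 to 0.38, all tested genes called higher numbered 2457 to 2949 and lower 1517 to 2394, and the summed FPKM difference ran from 41.6 to 85.2, with the highest counts of members and of genes and the highest sum without TM replicate 5. Quantile normalization moved most: 12 members were higher and 40 lower, 1953 genes were higher and 2862 lower, 23.1% of the members' calls were higher against 79.7% with TMM scaling and 76.3% to 84.9% in the other settings over all 12 libraries, and the median of members became -0.11. It also turned nhr-6 (-0.087), nhr-91 (-0.064), nhr-62 (-0.40), nhr-45 (-0.26), nhr-176 (-0.046), daf-12 (-0.10) and hizr-1 (-0.34) negative; the cause was not tested. limma on log2(FPKM + 1) gave a median of 0.25, a scale that understates changes of low genes. Without DMSO replicates 2 and 6 and TM replicate 5, 2832 genes were lower. The 0.1 FPKM minimum gave 58 members higher and 18 lower of 188 (all genes 22% and 14.6%). The DMSO minimum gave 55 and 11 of 130 (all genes 20.9% and 13.5%). Without the 5 most abundant members the summed difference was 90.6 FPKM. The labels do not say whether replicate numbers pair the libraries. Correlations of same-numbered deviations ran from -0.383 to 0.263, and libraries matched their own number best for replicates 3 and 4 only. Such correlations cannot settle whether the libraries were paired. With the number as a replicate block, 44 members were higher and 11 lower and 2328 genes higher and 1305 lower, the median stayed at 0.35, and 9 of the 67 named genes lost their call (nhr-195, nhr-256, nhr-6, nhr-48, nhr-176, hphd-1, hach-1, metr-1 and vha-3). Members below 1 FPKM rest on few counts, such as 0 to 8 in each DMSO library for nhr-113, so their fitted changes are imprecise (4.28 ± 0.78 for that gene).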
